A study of Mus musculus with 19 samples.

Results

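Neurotensin is a short peptide hormone made from a precursor encoded by Nts, the gene knocked out in the Nt-/- mice studied here and written Nt in the names of the mice. In the intestine it is released by enteroendocrine cells, the scattered hormone cells of the epithelium, in response to ingested fat. Convertases cut the precursor at pairs of basic residues, a carboxypeptidase trims the ends, receptors on other cells bind the peptide, and peptidases on cell surfaces and inside cells break it down. The transcripts of 10 genes of this route were followed in intestinal crypts, matched by symbol among 55487 genes: Nts itself; the convertases Pcsk1 and Pcsk2 and the carboxypeptidase Cpe; the G protein-coupled receptors Ntsr1 and Ntsr2 and the sorting receptor Sort1; and the peptidases Thop1, Nln and Mme.

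RNA was sequenced from the crypts of 19 adult C57BL/6 mice of both sexes, 1 library per mouse. The authors describe their fed and fasted mice of both genotypes as Lgr5-EGFP mice, which carry a fluorescent reporter for Lgr5. There were 5 Nt+/+ and 4 Nt-/- mice fed ad libitum on standard chow, while 5 mice of each genotype went without food, but with water, for 48 hours. Crypts, the pits that hold the stem and progenitor cells, were released with EDTA from the larger, proximal part of the small intestine, whereas neurotensin cells are more frequent toward the ileum. The controls were littermates. How the Nt-/- allele was made is not given in the sources used here. In 1 mouse, Nt+/+ fasted replicate 5, the title gives Nt+/+ and the genotype label Nt-/-. It was kept under its title, and values without it are given where they matter.

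Libraries held between 9059457 and 35068711 counts. Of the 10 genes, 7 passed the filter on low counts and were tested among 17875 genes. Ntsr1, Ntsr2 and Pcsk2 did not pass. The crypt epithelium list of 12 genes summed to 11198 to 20475 CPM (counts scaled to library size) per mouse. It holds general epithelial genes such as Epcam beside crypt genes, so its sum does not set crypt cells apart from other epithelium. Markers of other cells were present in all groups: absorptive enterocytes (14 genes) at a summed 4655 to 23316 CPM, immune cells (13 genes) at 75.3 to 190 CPM, endothelial and red blood cells (9 genes) at 7.57 to 33.9 CPM, stromal and smooth muscle cells (12 genes) at 10.2 to 20.5 CPM, and enteric neurons and glia (12 genes, 1 of them at 0 in every group) at 5.79 to 9.25 CPM. In bulk RNA, fewer cells of a type and less RNA per cell cannot be told apart.

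The part of the Nts coding sequence that the convertases and Cpe act on is shown because it holds both bioactive peptides. Nts (ENSMUSG00000019890) spans chr10:102481756-102490486 of GRCm38 on the minus strand, with 4 exons and a coding sequence of 169 codons. A search of the annotated transcript found 4 adjacent pairs of a lysine and an arginine codon. The last 3 pairs, at codons 140 and 141, 148 and 149, and 163 and 164, enclose 6 codons for neuromedin N and 13 codons for neurotensin. All of this lies in exon 4, at chr10:102482349-102482423, and is printed 5′ to 3′ on the coding strand with the lysine-arginine pairs in capitals.
Nts, neuromedin N and neurotensin: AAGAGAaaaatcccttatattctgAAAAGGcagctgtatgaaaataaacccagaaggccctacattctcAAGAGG
No other annotated gene overlaps Nts. The deposited gene counts do not show which exons the remaining reads of Nt-/- mice came from.

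Levels of different genes were compared on the deposited TPM scale, which adjusts for library size and transcript length. In Nt+/+ mice fed ad libitum, Sort1 was at 55.8 ± 3.69 TPM (mean ± SD, n = 5) and Mme at 50.8 ± 25.8 TPM, and their ranges overlapped. Nln at 16.3 ± 1.88 TPM and Thop1 at 16.2 ± 0.978 TPM came next with overlapping ranges. The Mme range, 12.97 to 80.1 TPM, took in both. Nts was at 7.64 ± 1.06 TPM, Cpe at 6.02 ± 0.864 TPM and Pcsk1 at 4.74 ± 0.831 TPM, each range overlapping with that of its neighbor in this order. The lowest Thop1 value, 15.3 TPM, lay above the highest Nts value, 9.03 TPM. Pcsk2, Ntsr2 and Ntsr1 had mean levels of at most 0.012 TPM in these mice. The intracellular and membrane peptidases and the sorting receptor were the abundant transcripts of the route, and both G protein-coupled receptors were nearly unread.

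**Figure D1:**
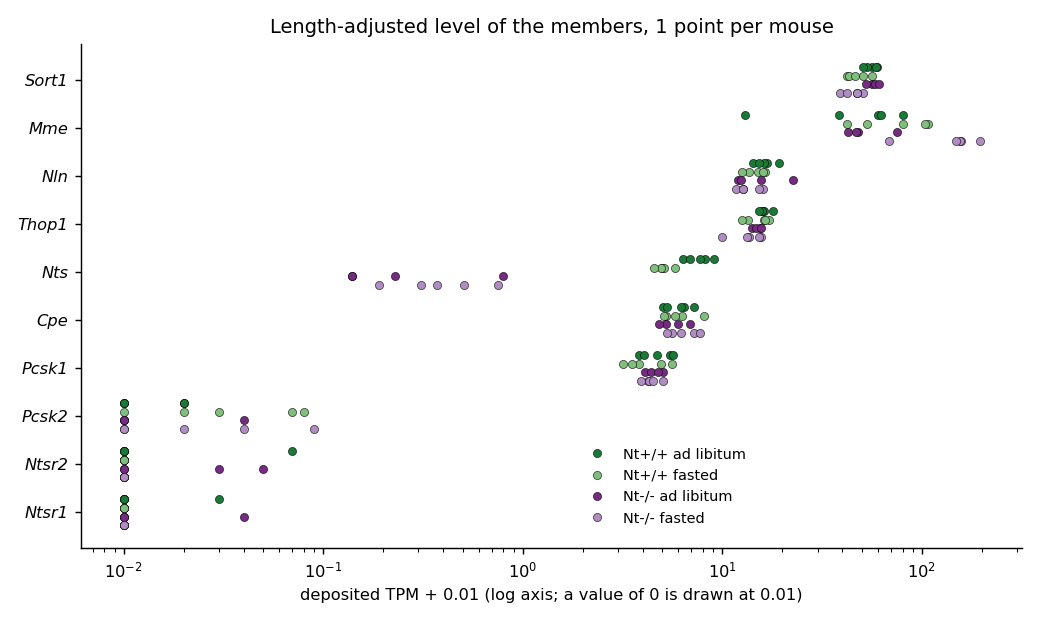
Deposited TPM of the 10 genes, 1 point per mouse, colored by group; the x axis is logarithmic and 0.01 was added to each value so that zeros could be drawn. Sort1 and Mme lie farthest to the right, Nts is at 4.56 TPM or more in Nt+/+ and at most 0.79 TPM in Nt-/- mice, and most values of Ntsr1, Ntsr2 and Pcsk2 are 0.

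The order changed at the top with fasting. Mme was first in fasted Nt+/+ mice at 77.5 ± 29.4 TPM, ahead of Sort1 at 47.7 ± 5.94 TPM, with overlapping ranges. In fasted Nt-/- mice Mme reached 144 ± 46.4 TPM against 45.2 ± 4.802 TPM for Sort1, and the lowest Mme value, 68.2 TPM, exceeded the highest Sort1 value, 50.8 TPM. Nts moved from rank 5 of the 10 genes in fed to rank 6 in fasted Nt+/+ mice, below Cpe, although both ranges overlapped with those of Cpe.

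Nts was read in every Nt+/+ mouse and nearly lost in Nt-/- mice. The 5 Nt+/+ mice fed ad libitum had 156, 174, 130, 133 and 177 counts, or 7.48, 7.74, 8.59, 6.75 and 8.55 CPM after TMM normalization. The 4 Nt-/- mice fed ad libitum had 5, 4, 3 and 14 counts, or 0.147, 0.216, 0.144 and 0.746 CPM. The groups were far apart, and replicate 4 of the Nt-/- mice stood above the other three. Nts was lower in Nt-/- mice by −4.70 on the log2 scale (SE, 0.36; edgeR adjusted p = 5.82e-07), and by −5.51 without that replicate. The mean that remained was 4.01% of the Nt+/+ mean, or 2.17% without replicate 4.

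In the fasted state Nt+/+ mice had 95, 73, 106, 100 and 97 Nts counts, or 5.50, 4.98, 5.45, 5.71 and 5.43 CPM. The 5 fasted Nt-/- mice had 4, 3, 9, 3 and 15 counts, or 0.214, 0.340, 0.520, 0.296 and 0.793 CPM. Again no Nt-/- value came near the Nt+/+ values, and the mouse with disagreeing labels, at 5.43 CPM, sat among the mice titled Nt+/+. The log2 fold change between genotypes was −3.56 (SE, 0.32; edgeR adjusted p = 1.36e-05), and 7.99% of the Nt+/+ mean remained. Without the mouse with disagreeing labels the fold change was −3.56 (edgeR adjusted p = 6.11e-05). Grouped as Nt-/-, as its genotype label has it, this mouse would move the value to −2.004 (edgeR adjusted p = 0.781).

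Nts was the only gene edgeR called between genotypes in either diet, 0.00559% of the genes tested in each case. Because Nts is the gene knocked out, its call and its separation between genotypes check the labels and are not a result about the members. It passed the count filter through the Nt+/+ mice. DESeq2 called 4 genes between fed and 99 between fasted genotypes, among them 1 member in each case and 2 absorptive enterocyte markers, both higher in Nt-/- mice, in the fasted state. Groups that did not overlap in CPM made up 0.694% of tested genes between fed genotypes and 1.56% between fasted genotypes, and Nts was the only one of the 7 tested members among them.

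Fasting was accompanied by less Nts in Nt+/+ crypts, in values that did not overlap. The mean was 7.82 ± 0.773 CPM (SD, n = 5) in mice fed ad libitum and 5.42 ± 0.267 CPM (n = 5) in fasted mice, and the highest fasted value, 5.71 CPM, lay below the lowest fed value, 6.75 CPM. Non-overlap of this kind was found in 14.6% of tested genes in this comparison. The log2 fold change was −0.53 (SE, 0.25; 95% interval, −1.06 to 0.00147) and did not pass the adjusted threshold when all 4 groups shared 1 estimate of the spread (edgeR adjusted p = 0.140).

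Some other fits gave nearly the same fold change and passed the threshold. With only the 10 Nt+/+ mice in the fit, the fold change of −0.53 had an edgeR adjusted p of 0.00773, and DESeq2 with all groups gave −0.52 at an adjusted p of 0.00741. Leaving out Nt-/- ad libitum replicate 4, which takes no part in the comparison, gave −0.53 with an edgeR adjusted p of 0.0394. Over the alternatives other than leaving out each mouse in turn, the adjusted p from edgeR or DESeq2 ranged from 0.00741 to 0.541. The exact permutation test of the 10 mice on CPM gave p = 0.00794, the smallest that 5 against 5 mice allow.

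In Nt-/- mice the fold change of Nts with fasting was 0.61 (SE, 0.43; edgeR adjusted p = 0.332), from means of 0.314 ± 0.290 CPM (n = 4) and 0.433 ± 0.230 CPM (n = 5). It was 1.42 (edgeR adjusted p = 0.00926) without Nt-/- ad libitum replicate 4, at counts of at most 15 per mouse and with fed counts of 5, 4 and 3 left. These are residual reads of the knocked-out gene, which passed the count filter through the Nt+/+ mice. Neither value can be read as an effect of fasting on Nts. The difference between the 2 fold changes with fasting, which uses the same residual reads, was 1.14 (SE, 0.50) and did not pass the threshold (edgeR adjusted p = 1.00).

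**Figure D2:**
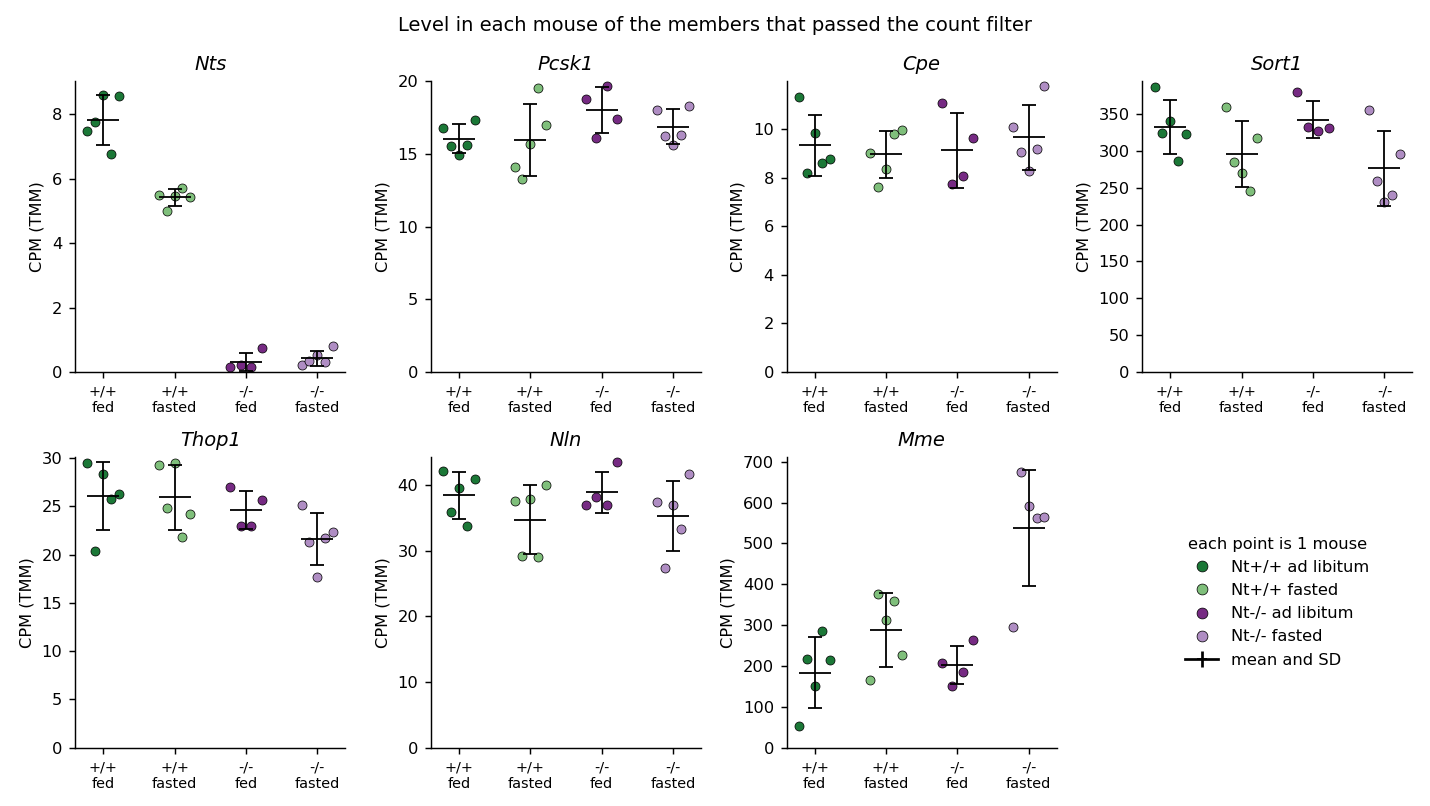
CPM of the 7 tested genes in each mouse by group, with the mean and SD as bars and each y axis starting at 0. Nts is lower in all fasted than in all fed Nt+/+ mice and close to 0 in Nt-/- mice, Mme is highest in fasted Nt-/- mice, and the groups overlap in the other 5 genes.

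Enteroendocrine genes were described as a list beside Nts. The 27 listed genes, which include chromogranins, transcription factors and other gut hormones, summed to 329 ± 29.8 CPM in fed and 355 ± 28.9 CPM in fasted Nt+/+ mice. Of the 24 tested in Nt+/+ mice, fasting raised 2, Chga (log2 fold change, 0.39; edgeR adjusted p = 0.0212) and the somatostatin gene Sst (0.55; edgeR adjusted p = 0.00330), and lowered none, with a median of 0.02 beside −0.01 over all genes tested. Of all genes tested, 21.6% were called in this comparison. When the mean log2 level of the list was subtracted from that of Nts, fasted Nt+/+ mice differed by −0.52 (exact permutation p = 0.00794, the smallest possible; 1 of 5 such tests, not adjusted). The list covers several hormones, and its mean need not follow the cells that make Nts. The part of these cells in the change of Nts was not tested.

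In fasted Nt-/- mice, where 25.2% of all genes tested were called with fasting, the same list had 2 genes higher, Chga and Sst, and 3 lower of 24. The lower ones were the transcription factor gene Neurog3 at −1.25 (SE, 0.40), the peptide YY gene Pyy at −0.71 (SE, 0.23) and the proglucagon gene Gcg at −0.49 (SE, 0.12), with edgeR adjusted p of 0.0265, 0.0324 and 0.00549. Their fold changes in Nt+/+ mice were −0.41, −0.37 and −0.23, none of which passed the test.

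**Figure D3:**
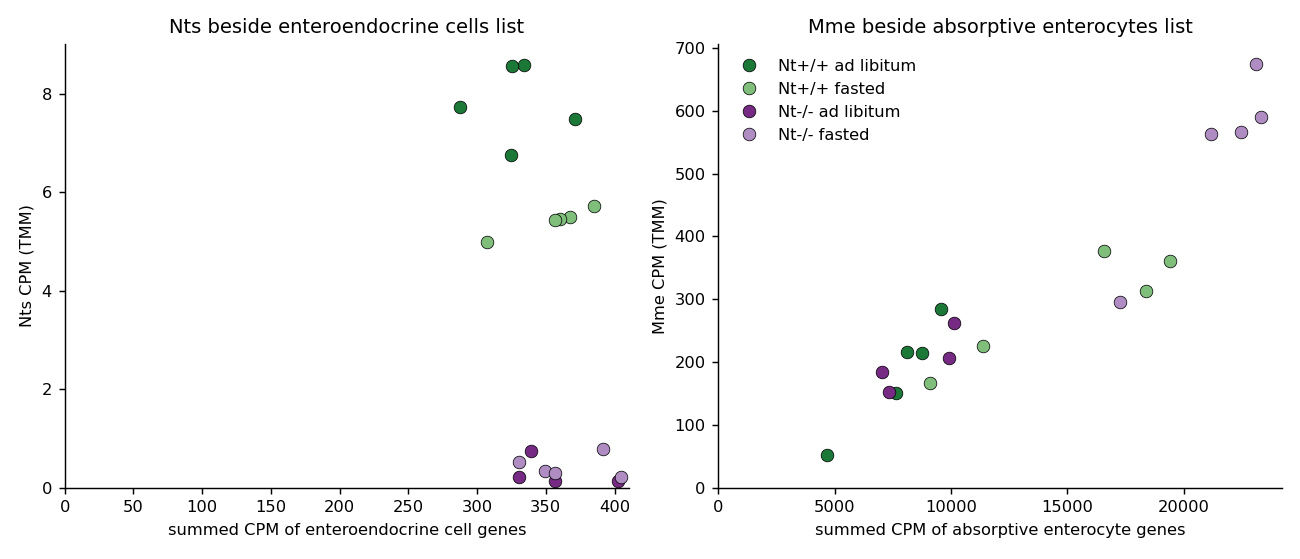
Left, Nts CPM against the summed CPM of 27 enteroendocrine genes; right, Mme CPM against the summed CPM of 14 absorptive enterocyte genes; 1 point per mouse, colored by group, both axes from 0. Fed and fasted Nt+/+ mice separate in Nts over a shared range of enteroendocrine levels, and Mme is high in the mice in which enterocyte genes are high.

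Of the enzymes that mature the precursor, Pcsk1 and Cpe were read in every mouse and Pcsk2 in 10 of 19, at no more than 6 counts. Pcsk1, the convertase of most gut hormone cells, had 16.8, 15.5, 14.9, 15.6 and 17.4 CPM in fed Nt+/+ mice and 14.1, 13.3, 15.7, 19.5 and 17.0 CPM in fasted Nt+/+ mice. In Nt-/- mice it had 18.8, 16.1, 19.7 and 17.4 CPM fed and 17.99, 16.2, 15.6, 16.3 and 18.3 CPM fasted. All groups overlapped. Its largest fold change was 0.17 between fed genotypes (SE, 0.10; edgeR adjusted p = 1.00), where the exact permutation test gave p = 0.0476, 1 of 40 such tests over members and comparisons and not adjusted. Relative to the enteroendocrine list, Pcsk1 differed by −0.02 with fasting in Nt+/+ mice (exact permutation p = 0.770) and by 0.06 in Nt-/- mice (exact permutation p = 0.214). The direction in Nt-/- mice turned, to −0.129 (exact permutation p = 0.0238), when the summed CPM of the list was used in place of its mean log2 level.

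Cpe, which removes the basic residues left after cleavage, ranged from 7.64 to 11.8 CPM over all mice. Its group means were 9.35 ± 1.26 CPM in fed Nt+/+, 9.14 ± 1.54 CPM in fed Nt-/-, 8.97 ± 0.979 CPM in fasted Nt+/+ and 9.68 ± 1.34 CPM in fasted Nt-/- mice. Fold changes lay between −0.06 and 0.11 on the log2 scale in the 4 comparisons, and the 95% interval of the fasting effect in Nt+/+ mice was −0.34 to 0.22.

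Pcsk2, the convertase typical of neurons and pancreatic islet cells, had 24 counts over all 19 libraries and was at 0 in 9 of them. The counts were 0, 1, 0, 1 and 0 in fed Nt+/+ mice, 0, 1, 6, 4 and 1 in fasted Nt+/+ mice, 0, 2, 0 and 0 in fed Nt-/- mice, and 0, 1, 6, 0 and 1 in fasted Nt-/- mice. The difference with fasting in Nt+/+ mice, 0.113 CPM, had an exact permutation p of 0.0635. It was 0.146 CPM (p = 0.00794 by the same exact test, not adjusted) without Nt+/+ fasted replicate 1, a mouse with 0 counts. This was the only one of 10 mice whose removal took p under 0.05. The groups then parted between 0.0560 CPM fasted and 0.0508 CPM fed, each 1 count, so library size alone separates them. A pair of antisense genes overlaps Pcsk2, with 16 counts in all, and the strand setting of the counting is not stated.

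Other processing genes were taken as a list. Of all genes tested, 21.6% were called with fasting in Nt+/+ and 25.2% in Nt-/- mice. Of 10 tested genes of the list, 2 rose and none fell in Nt+/+ mice and 2 rose and 1 fell in Nt-/- mice, with medians of −0.02 and 0.10. Within title numbers (replicate block), 4 were higher and 1 lower in Nt-/- mice. Within file-name numbers, 2 were higher and 1 lower, as in the main fit. Furin, the convertase of the constitutive secretory pathway, rose by 0.75 (SE, 0.09; edgeR adjusted p = 5.29e-06) in Nt+/+ and 0.87 (SE, 0.09; edgeR adjusted p = 2.27e-06) in Nt-/- mice. Pcsk4 rose by 0.98 (SE, 0.19; edgeR adjusted p = 0.000995) and 0.93 (SE, 0.20; edgeR adjusted p = 0.00212). Pcsk6 fell by 1.30 in Nt-/- mice (SE, 0.38; edgeR adjusted p = 0.0175) and had a fold change of −0.90 in Nt+/+ mice that did not pass the test (edgeR adjusted p = 0.0906).

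The G protein-coupled receptors were barely read. Ntsr1, the high-affinity receptor on chr2:180499976-180544980, had 2 counts in all, 1 in a fed Nt+/+ mouse and 1 in a fed Nt-/- mouse. Ntsr2, the low-affinity receptor on chr12:16653382-16660227, had 3 counts, 1 in a fed Nt+/+ mouse and 2 in fed Nt-/- mice. Neither had a count in any of the 10 fasted mice. A library with no count allows up to 3 counts, which corresponds to between 0.0855 and 0.331 CPM depending on the mouse. With so few counts, no difference in either receptor between groups was detectable at this depth.

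Genes that act downstream of the receptors, in the Gq, phospholipase C, calcium and mitogen-activated kinase route, were read throughout. Of 19 tested, fasting raised 3 and lowered 5 in Nt+/+ mice and raised 4 and lowered 4 in Nt-/- mice, with medians of −0.05 and −0.06. Of all genes tested, 21.6% were called with fasting in Nt+/+ and 25.2% in Nt-/- mice. Prkcd rose by 0.50 and 0.61, Map2k2 by 0.43 and 0.48, and the G protein gene Gna11 by 0.30 and 0.38, in Nt+/+ and Nt-/- mice in turn. The inositol trisphosphate receptor genes Itpr1 (−0.57 and −0.64) and Itpr3 (−0.36 and −0.57) fell, as did the phospholipase gene Plcb4 (−0.41 and −0.53). Among these 12 values the edgeR adjusted p was at most 0.0433.

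Sort1 encodes sortilin, which binds neurotensin but mainly sorts proteins between the Golgi, the surface and lysosomes. It had 387, 324, 341, 287 and 322 CPM in fed Nt+/+ mice and 360, 285, 270, 246 and 318 CPM in fasted Nt+/+ mice. In Nt-/- mice it had 380, 332, 326 and 332 CPM fed and 355, 259, 231, 240 and 295 CPM fasted. The groups overlapped in both genotypes, with replicate 1 the highest mouse of each group.

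The fold change of Sort1 with fasting was −0.17 (SE, 0.12; edgeR adjusted p = 0.342) in Nt+/+ and −0.31 (SE, 0.12; edgeR adjusted p = 0.0758) in Nt-/- mice, and neither passed the test. When mice were compared within title numbers (a replicate block), Sort1 in Nt-/- mice was at −0.34 and passed (edgeR adjusted p = 0.00286), as it did within file-name numbers at −0.30 (edgeR adjusted p = 0.00521). Sort1 was lower in the fasted mouse in 5 of 5 Nt+/+ pairs and 4 of 4 Nt-/- pairs. Leaving out Nt-/- fasted replicate 1 gave −0.42 (edgeR adjusted p = 0.0121), and upper quartile normalization −0.31 (edgeR adjusted p = 0.0408). Between genotypes Sort1 differed by 0.04 fed and −0.10 fasted (edgeR adjusted p = 1.00 and 0.871). Sort1 overlaps 2 further annotated genes, 1 on each strand, with 2300 and 6 counts against 111422 for Sort1.

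In the family and trafficking partners of sortilin, fasting raised 2 and lowered 2 of 11 tested genes in Nt+/+ mice, and raised 1 and lowered 1 in Nt-/- mice. The share called over all genes tested was 21.6% in Nt+/+ and 25.2% in Nt-/- mice. Sorcs2, a neuronal sortilin relative, rose by 0.80 (SE, 0.13; edgeR adjusted p = 0.000240) and 0.45 (SE, 0.14; edgeR adjusted p = 0.0228), and the sortilin relative Sorl1 fell by 0.21 and by 0.24 (edgeR adjusted p = 0.0400 and 0.0243). The retromer subunit gene Vps35 fell by 0.32 and the receptor chaperone gene Lrpap1 rose by 0.32 in Nt+/+ mice (edgeR adjusted p = 0.00849 and 0.0225). Within file-name numbers, 2 genes of this list were higher and 4 lower in Nt-/- mice, and within title numbers 1 was higher and 2 lower.

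Thop1 and Nln are related metallopeptidases that cut neurotensin inside cells and after release. Thop1 had 29.5, 20.4, 28.4, 25.7 and 26.2 CPM in fed and 29.3, 24.8, 29.5, 21.9 and 24.2 CPM in fasted Nt+/+ mice. In Nt-/- mice it had 26.99, 23.0, 23.0 and 25.6 CPM fed and 25.2, 21.3, 17.7, 21.7 and 22.3 CPM fasted. The lowest value was in a fasted Nt-/- mouse, and all groups overlapped. Its fold changes with fasting, −0.00 in Nt+/+ and −0.19 in Nt-/- mice, did not pass (edgeR adjusted p = 0.986 and 0.270). In fasted mice it was at −0.26 in Nt-/- relative to Nt+/+ (SE, 0.11; edgeR adjusted p = 0.473), lower in 5 of 5 same-numbered pairs.

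Nln ranged from 27.3 to 43.5 CPM over all mice, and its group means, 38.4 ± 3.55 and 34.7 ± 5.19 CPM in fed and fasted Nt+/+ and 38.9 ± 3.12 and 35.3 ± 5.35 CPM in fed and fasted Nt-/- mice, belonged to groups that overlapped. Fold changes with fasting were −0.14 (edgeR adjusted p = 0.379) and −0.13 (edgeR adjusted p = 0.448).

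Among 18 further intracellular peptidases, most calls were toward lower levels with fasting, 7 against 1 in Nt+/+ and 9 against 1 in Nt-/- mice, with medians of −0.17 and −0.25. Over all genes tested, 10.4% were called lower in Nt+/+ and 12.6% in Nt-/- mice. The puromycin-sensitive aminopeptidase gene Npepps fell by 0.47 and by 0.38, the tripeptidyl peptidase gene Tpp2 by 0.45 and by 0.38, and the mitochondrial peptidase gene Mipep by 0.44 and by 0.53. The leucine aminopeptidase gene Lap3 rose by 0.72 (SE, 0.15; edgeR adjusted p = 0.00170) and 1.27 (SE, 0.16; edgeR adjusted p = 1.26e-05).

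Mme encodes neprilysin, a peptidase of the outer cell surface that degrades neurotensin and many other peptides, and was the member called with fasting. Fed Nt+/+ mice had 52.8, 216, 150, 285 and 215 CPM and fasted Nt+/+ mice 166, 377, 314, 360 and 226 CPM. Fed Nt-/- mice had 207, 152, 185 and 262 CPM and fasted Nt-/- mice 296, 675, 591, 563 and 566 CPM. Replicate 1 was the lowest mouse of 3 of the 4 groups. Fed and fasted mice overlapped in Nt+/+ and did not overlap in Nt-/-, where 21.3% of tested genes showed groups that did not overlap.

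With fasting, Mme rose by 1.42 on the log2 scale in Nt-/- mice (SE, 0.35; edgeR adjusted p = 0.00552; exact permutation p = 0.0159), a 2.67-fold difference. In Nt+/+ mice the fold change was 0.65 (SE, 0.32; edgeR adjusted p = 0.159). Within title numbers (replicate block) it was 0.73 and passed (edgeR adjusted p = 0.0403), and within file-name numbers 0.72 (edgeR adjusted p = 0.0486). Of the same-numbered Nt+/+ pairs, 5 of 5 had more Mme after fasting. The difference between the 2 effects was 0.77 (SE, 0.47; 95% interval, −0.23 to 1.76; edgeR adjusted p = 1.00), so that a larger effect in Nt-/- mice was not shown. Both comparisons of genotypes use the same fed and fasted groups: Mme differed by 0.13 fed (SE, 0.34) and 0.90 fasted (SE, 0.32; edgeR adjusted p = 0.375; exact permutation p = 0.0317). In the fasted state Mme was higher in the Nt-/- mouse of 5 of 5 same-numbered pairs, by a mean of 0.91 (exact sign permutation p = 0.0625, the smallest possible), and blocked fits did not pass (edgeR adjusted p = 0.136 by titles and 0.129 by file names).

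Mme was the only member called with fasting, 1 of 7 tested in Nt-/- mice and none in Nt+/+ mice, where 1 member had an unadjusted p under 0.05 and DESeq2 called 1, Nts in both cases. Across all genes edgeR called 21.6% with fasting in Nt+/+ (11.2% higher and 10.4% lower) and 25.2% in Nt-/- mice (12.5% higher and 12.6% lower). The members' median log2 fold changes were −0.06 and −0.09 beside −0.01 and −0.02 over all genes tested. For the difference between the effects of fasting, edgeR called 0% of genes and no member, 1 member and 485 of all genes had an unadjusted p under 0.05, and DESeq2 called 1 gene and no member.

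**Figure D4:**
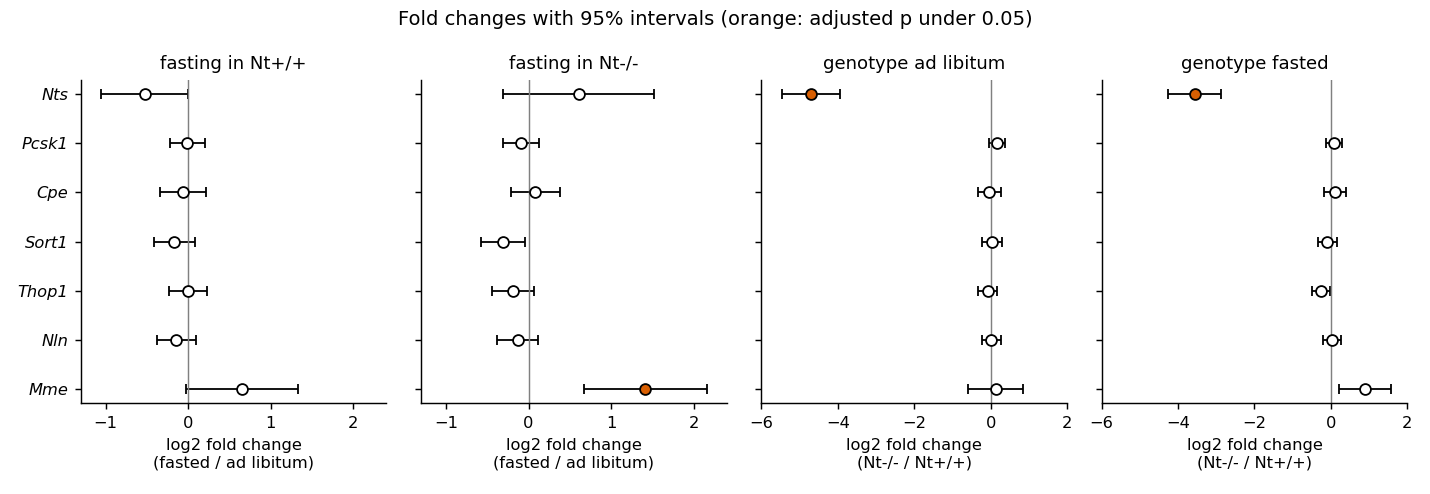
Log2 fold changes of the 7 tested genes in the 4 comparisons with 95% intervals; orange points passed an edgeR adjusted p of 0.05, and the x axes differ between fasting and genotype panels. Mme with fasting in Nt-/- mice (1.42) and Nts between genotypes (−4.70 fed, −3.56 fasted) passed.

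Most surface peptidases other than Mme rose with fasting in both genotypes. Over all genes tested, 11.2% were called higher in Nt+/+ and 12.5% in Nt-/- mice. Of the 10 surface peptidases tested, 7 rose and none fell in each genotype, with medians of 0.67 in Nt+/+ and 0.89 in Nt-/- mice. The largest values in both were those of the aminopeptidase gene Xpnpep2 (1.14 and 1.29) and the glutamyl aminopeptidase gene Enpep (1.00 and 1.20), with edgeR adjusted p of at most 0.000832. Ece1 passed in Nt+/+ mice (0.22; edgeR adjusted p = 0.0419) and not in Nt-/- mice (0.10), and Dpp4 passed in Nt-/- mice (0.66; edgeR adjusted p = 0.0150) and not in Nt+/+ mice (0.39). Meprin genes Mep1a (0.74 and 0.92) and Mep1b (0.60 and 0.86), the aminopeptidase gene Anpep (0.89 and 1.08) and Ace (0.80 and 1.16) passed in both.

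**Figure D5:**
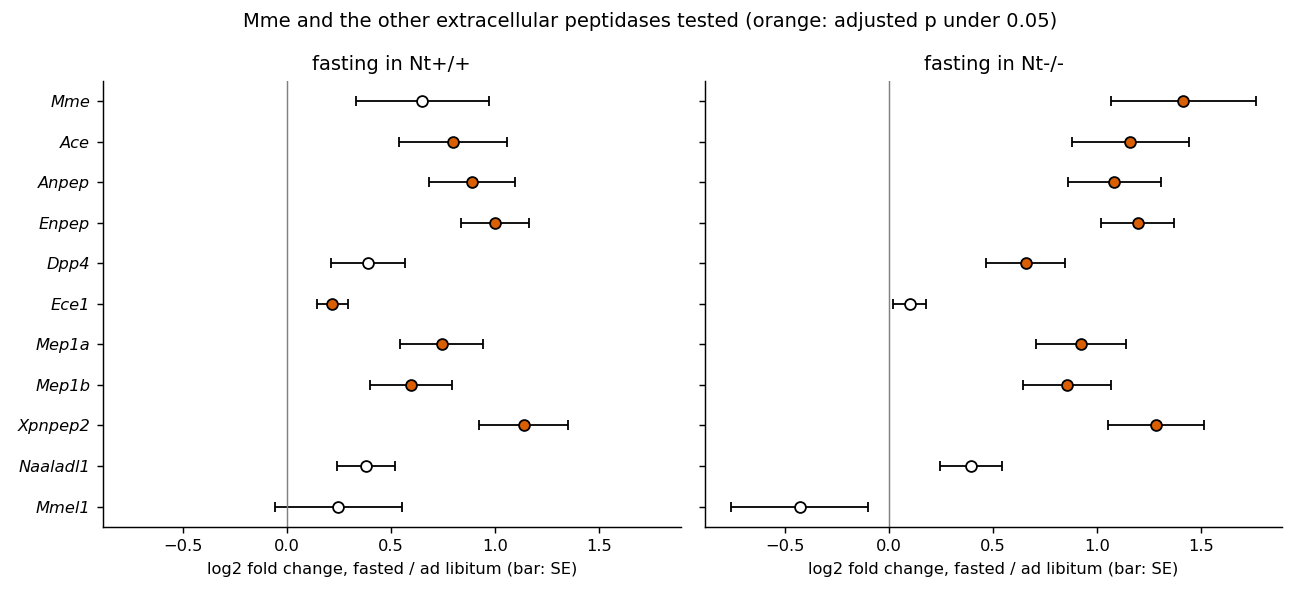
Log2 fold change with fasting of Mme and the 10 other extracellular peptidases tested, in Nt+/+ (left) and Nt-/- mice (right), with SE as bars; orange points passed an edgeR adjusted p of 0.05. In each panel 7 of the 10 passed, all to the right of 0; Mme lies within their span in Nt+/+ mice (0.65) and beyond it in Nt-/- mice (1.42).

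Absorptive enterocyte markers moved with Mme. All 14 were tested: 10 rose in Nt+/+ and 14 in Nt-/- mice, with medians of 0.97 and 1.46. Over all genes tested, 11.2% were called higher in Nt+/+ and 12.5% in Nt-/- mice, with medians of −0.01 and −0.02. Those that rose include the fatty acid binding protein gene Fabp1 (2.09 and 2.05) and the apolipoprotein gene Apoa4 (1.42 and 1.85). Their sum was 7749 ± 1877 CPM in fed and 14988 ± 4508 CPM in fasted Nt+/+ mice, and 8600 ± 1636 CPM in fed and 21469 ± 2504 CPM in fasted Nt-/- mice. Relative to the mean log2 level of these markers, Mme differed with fasting by −0.18 in Nt+/+ (exact permutation p = 0.444) and −0.02 in Nt-/- mice (exact permutation p = 0.952), and by −0.37 in Nt+/+ mice (exact permutation p = 0.0476) without Nt+/+ ad libitum replicate 1. In the crypt list, the stem cell marker Olfm4 fell by 0.63 and by 0.92 and the proliferation marker Mki67 by 0.46 and by 0.59. The other 10 genes of 12 did not pass, and the list as a whole did not fall in Nt+/+ mice. Its medians were 0.08 in Nt+/+ and −0.03 in Nt-/- mice, with 7 and 4 of the 12 genes above 0. The share called in either direction over all genes tested was 21.6% in Nt+/+ and 25.2% in Nt-/- mice. In the 2 further lists with calls, 1 of 12 tested immune genes, the myeloid gene Itgam, fell in both genotypes (by 0.83 and by 0.54). Of 4 tested genes of enteric neurons and glia, 1 rose in Nt-/- mice, Snap25 (0.84), a gene of neurons and endocrine cells. The part of these cell types in the change of Mme was not tested.

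Between genotypes, edgeR called none of the 68 tested genes of the 5 pathway lists in either diet, with an unadjusted p under 0.05 in 1 gene fed and 10 genes fasted, beside 299 and 1634 of all 17875 genes. DESeq2 also called none of the 68. None of the 68 passed for the difference between the effects of fasting (2 at an unadjusted p under 0.05).

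The genes most like each member in level over the mice were found by Pearson's r of log2 CPM among 15011 genes, as a description in which points share diet, genotype and library. For Nts, over the 10 Nt+/+ mice, they were Slc39a9 (r = 0.960), Ldah (0.956) and Nox1 (0.954). Over all 19 mice, Mme was most like 2010106E10Rik (0.975), Agmo (0.963) and Papss2 (0.963), and Sort1 like Parva (0.955), Tspan1 (0.950) and Ppp1ca (0.946). Thop1 was most like Mydgf (0.898), Tuba1c (0.897) and Tuba1b (0.890), and Nln like Lancl2 (0.887), Mrps9 (0.886) and Ide (0.885). The 3 nearest to Cpe were Fam241b (0.815), Prpf6 (0.807) and Rtn4rl1 (0.751). For Pcsk1 the values were lower, with Myt1 (0.694) and the chromogranin gene Chgb (0.658), both of enteroendocrine cells, ahead of Slc12a9 (0.652).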

How the data were processed

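RNA from isolated crypts was depleted of ribosomal RNA and sequenced by the authors as single-end reads. The authors trimmed reads with Trimmomatic 0.39 (the submitters' processing notes) and mapped them with RSEM to Ensembl transcripts of GRCm38, and the RSEM version and strand setting are not given in the sources used here. The deposited expected counts per gene are not normalized, and RSEM divides reads that fit several genes between them. The deposited TPM values, scaled by the authors for effective gene length, were used for levels between genes. The deposited length columns are in another unit, bases, and were used only to recompute that order.

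Expected counts were rounded to whole counts, from 9059457 to 35068711 per mouse (median, 18541819), so that Nts had 130 to 177 counts in each fed Nt+/+ mouse. Genes passing filterByExpr (17875) were tested with edgeR 4.0.16 in R 4.3.3: TMM normalization, 1 coefficient per group taken from the titles, the quasi-likelihood test with 15 residual degrees of freedom, and Benjamini-Hochberg adjustment over all genes at 0.05. The fit was tested on simulated data. Single values were compared by two-sided exact permutation tests of the mice, whose smallest p is 0.00794. Relative levels used log2(CPM + 0.1). The exact tests on single members were added after the data were seen. Intervals for zero counts (3 counts) and for the pooled receptor counts cover counting error only. Symbols came from GENCODE M21 for 55227 of the genes.

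The members, the gene lists and the rule for named genes (all members; in each list and comparison up to 3 highest and 3 lowest called genes, further ones named after their values were seen; the 3 genes most like each member) were chosen with earlier results of these data known. Some genes of the lists are not reported here and were left out of the list counts and medians. Deviations from group means correlated in same-numbered mice: for the numbers in the titles, every pair exceeded r = 0.1 with fasting in Nt+/+ (5 pairs; mean r, 0.270) and between fasted genotypes (5 pairs; 0.271), and 2 of 4 pairs did in each other comparison. For the numbers in the file names every pair exceeded it in all 4 (mean r, 0.230 to 0.271). What the numbers stand for is not stated. Blocked fits, other filters, upper quartile normalization, DESeq2 1.42.0, sex as a covariate (18 mice, since 1 has no sex label), only the groups compared, the other grouping of the mouse with disagreeing labels and leaving out each mouse were alternatives. Mice are separate animals, and no 2 libraries were duplicates.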

Additional observations from a re-analysis of the deposited data

Results flagged for a closer look

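Within-group outliers were sought by Dixon's test in 28 groups of 4 or 5 mice, in which chance alone would give about 1 in 20, and 2 groups held one. Both were among the 4 Nt-/- mice fed ad libitum. Nts in replicate 4 was at 0.746 CPM (14 counts), above 0.147, 0.216 and 0.144 CPM in the others. Sort1 in replicate 1 was at 380 CPM, above 332, 326 and 332 CPM, in the most deeply sequenced library of the series (35068711 counts). Without the first mouse, Nts with fasting passed the threshold in Nt-/- mice and in Nt+/+ mice, at fold changes of 1.42 and −0.53. The value in Nt-/- mice comes from residual reads of the knocked-out gene and cannot be read as an effect of fasting.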

How the results depend on the processing

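Of 384 recomputed values other than those leaving out a mouse, 349 kept their direction and their side of the threshold. With the replicate block by titles or by file names, with only the groups compared, or with DESeq2, 1 member was called with fasting in Nt+/+ mice. With upper quartile normalization, either replicate block, or the doubtfully labelled mouse counted as Nt-/-, 2 were called in Nt-/- mice. Between genotypes 0 were called with at least 10 counts required in every mouse, which removes Nts, and with that mouse regrouped. The block changed no other call of a member in edgeR. Relative to enteroendocrine genes, the fall of Nts (−0.52) had an exact p of 0.0625 within replicate block pairs, the smallest possible. With summed markers, Pcsk1 in Nt-/- mice was at −0.129 (exact permutation p = 0.0238) and Mme at 0.0609.

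Values near 0 changed sign: with fasting in Nt+/+ mice Pcsk1 (0.000924 with upper quartile normalization) and Thop1 (0.00610 with upper quartile normalization, 0.0207 with the mouse regrouped, 0.00234 with DESeq2), Cpe with fasting in Nt-/- mice (−0.00142 with sex), Nln between fasted genotypes (−0.00457 with sex), and the Nln difference in effects (−0.00107 without a filter, −0.0438 and −0.0129 with the title and file-name replicate block, −0.0488 with sex). The cause was not tested.

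Leaving out each mouse in turn kept the direction and call in 894 of 941 values. Fold changes whose call or direction moved ranged, with fasting in Nt+/+ mice, from −0.58 to −0.49 for Nts, −0.0931 to 0.0488 for Pcsk1, −0.104 to 0.0200 for Cpe and −0.0809 to 0.0524 for Thop1, and the Pcsk2 difference from 0.0691 to 0.146 CPM. With fasting in Nt-/- mice they ranged from 0.23 to 1.42 for Nts, −0.42 to −0.25 for Sort1 and −0.000847 to 0.19 for Cpe. Between fed genotypes they ranged from −0.00912 to 0.11 for Sort1, −0.139 to 0.0504 for Cpe, −0.0410 to 0.0524 for Nln and −0.10 to 0.35 for Mme, and between fasted genotypes from −0.0374 to 0.104 for Nln. The differences in effect ranged from −0.13 to 0.00105 for Pcsk1 and −0.0546 to 0.0873 for Nln. Relative levels ranged from −0.0927 to 0.0250 for Pcsk1 in Nt+/+ mice, and for Mme from −0.373 to −0.0915 in Nt+/+ and −0.0896 to 0.111 in Nt-/- mice. Members called ranged from 0 to 1 in Nt+/+ and 1 to 2 in Nt-/- mice with fasting.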

Other observations

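The Nts reads left in Nt-/- mice, 60 counts over 9 mice, were not spread evenly. Among the 8 with a sex label, the 2 labelled male had 0.520 and 0.746 CPM and the 6 labelled female 0.144 to 0.340 CPM (exact permutation p = 0.0357, the smallest possible, chosen after the values were seen and not adjusted). The mouse without a sex label had the highest value, 0.793 CPM. Sex ran together with the numbers in the file names, from which it cannot be told apart.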
